A study of Mus musculus with 9 samples.

Results

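The TAM receptors are 3 receptor tyrosine kinases, encoded by Axl, Mertk and Tyro3, and their soluble ligands are growth arrest-specific protein 6 (Gas6) and protein S (Pros1). These 5 genes were chosen by name and matched by Ensembl identifier in a table of read counts for 53465 mouse genes. All 5 were in the table, and 4 of the 5 had enough counts to be tested among 12610 genes. Tyro3 did not, and its counts are described without a test.

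Both ligands hold a vitamin K-dependent Gla domain that binds phosphatidylserine on apoptotic cells and membrane debris, and so bridge that surface to a receptor on the phagocyte. Gas6 can bind each of the 3 receptors, whereas protein S is known as a ligand of MERTK and TYRO3. In macrophages MERTK is known for the uptake of apoptotic cells, AXL is induced by interferons and other inflammatory signals, and both dampen cytokine signalling. Receptor ectodomains are shed by the proteases ADAM10 and ADAM17, and the shed forms can trap ligand.

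RNA was sequenced from 9 libraries of mouse macrophages, 3 in each of 3 groups. Lining macrophages (libraries A, B and C) were CD45+CD11b+F4/80+GFP+ cells and interstitial macrophages (D, E and F) were CD45+CD11b+F4/80+GFP- cells, both sorted from the synovium of hind paws of healthy Cx3cr1-GFP mice. That reporter places green fluorescent protein at the locus of the fractalkine receptor gene Cx3cr1, and its zygosity is not given in the sources used here. Bone marrow-derived macrophages (BMDM, libraries G, H and I) came from C57BL/6 mice and had been cultured over 5 days with conditioned medium as a source of macrophage colony-stimulating factor (MCSF). Age, sex and the number of animals behind a library are not given in the sources used here, so p-values measure the spread between these libraries, which may be technical. The BMDM differ from both sorted groups in mouse strain, tissue, sorting and culture, and these cannot be told apart in any comparison with BMDM. The 3 comparisons also share libraries, so they are not independent of each other.

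Levels are CPM, counts set to a common library total, scaled between libraries by the trimmed mean of M values, and a level per kilobase of exon (CPM/kb) is used wherever genes are compared with each other. Library totals ran from 2194920 to 22499823 counts. The deepest libraries were the BMDM, and 3 counts, the least taken as detected, came to between 0.273 and 1.45 CPM in the 6 sorted libraries and to between 0.130 and 0.149 CPM in BMDM. Calls are those of edgeR's quasi-likelihood test at adjusted p-values below 0.05, with Benjamini-Hochberg adjustment over all 12610 genes. Cx3cr1, which checks the sort, averaged 708 ± 59.0 CPM in lining, 4.93 ± 2.66 CPM in interstitial and 278 ± 38.2 CPM in BMDM libraries (SD, n = 3 each). All 7 identity markers, among them Ptprc (CD45), Itgam (CD11b) and Adgre1 (F4/80), were detected in every library. In bulk RNA, fewer cells that express a gene and less RNA of it per cell cannot be told apart.

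Mertk and Pros1 had the highest correlation of any pair of the tested members across the 9 libraries (Pearson r = 0.958). Both were low in BMDM. Between lining and interstitial libraries they went opposite ways, with log2 fold changes of 0.44 for Mertk, which was not called, and -0.61 for Pros1. Axl ran separately from both (r = -0.02 and -0.28). The 250 bases before the RefSeq transcription starts (GRCm38.p6) of Mertk, Pros1 and Axl are set side by side. Capitals mark matches, on either strand, to the GC box GGGCGG, the site of SP/KLF factors, and to the PU.1 core GAGGAA, bound by the macrophage factor PU.1.
Mertk, chr2:128698665-128698914, plus strand: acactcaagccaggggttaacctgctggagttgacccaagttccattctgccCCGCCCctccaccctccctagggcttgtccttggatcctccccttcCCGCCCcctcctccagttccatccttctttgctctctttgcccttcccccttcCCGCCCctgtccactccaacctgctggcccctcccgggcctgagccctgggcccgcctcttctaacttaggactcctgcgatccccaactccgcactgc
Pros1, chr16:62854057-62854306, plus strand: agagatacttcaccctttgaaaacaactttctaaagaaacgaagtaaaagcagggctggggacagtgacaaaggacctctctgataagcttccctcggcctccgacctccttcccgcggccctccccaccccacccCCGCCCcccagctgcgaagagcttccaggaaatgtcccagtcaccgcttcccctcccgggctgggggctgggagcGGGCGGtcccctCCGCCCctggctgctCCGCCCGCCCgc
Axl, chr7:25788734-25788983, minus strand: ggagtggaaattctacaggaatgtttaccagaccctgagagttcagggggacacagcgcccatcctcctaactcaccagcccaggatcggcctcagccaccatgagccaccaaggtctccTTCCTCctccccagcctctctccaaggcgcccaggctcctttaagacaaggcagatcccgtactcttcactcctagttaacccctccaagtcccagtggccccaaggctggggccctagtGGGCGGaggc
The Mertk stretch held 3 GC boxes and the Pros1 stretch held 5, of which the last pair overlap, whereas the Axl stretch held 1 GC box and 1 PU.1 core. Of the other members, Tyro3 had 3 GC boxes and Gas6 had 4. The Tyro3 stretch (chr2:119799264-119799513) lies within the gene as counted, which starts at base 119797733. At least 1 GC box occurred in 32.7% of 32851 RefSeq promoter stretches of the same length and at least 1 PU.1 core in 23.3%. These shares give no reference for the number of boxes in a stretch. The AP-1 element TGANTCA, the MAF core TGCTGA, the LXR repeat (AGGTCA, 4 free bases, AGGTCA) and the interferon element (GAAA, 2 free bases, GAAA), also searched on both strands, had no match in the 5 stretches. They occurred in 6.75%, 16.1%, 0.0152% and 2.98% of all such stretches. CpG dinucleotides numbered 5 before Axl, 7 before Mertk, 10 before Gas6, 15 before Pros1 and 24 before Tyro3, against a median of 6 over all promoters. A match is a description of letters and no evidence of binding.

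Axl, the receptor whose ligand is Gas6, had the largest difference between the tissue populations among the 4 members tested. The gene (ENSMUSG00000002602, chromosome 7, bases 25757273 to 25788705, minus strand, in GRCm38 as in the deposited table) is counted over all its exons. It had 449, 201 and 206 CPM in lining libraries A, B and C, against 23.5, 39.7 and 83.05 CPM in interstitial libraries D, E and F, with 154, 121 and 137 CPM in BMDM. Every lining library lay above every BMDM library and every BMDM library above every interstitial one. Library A stood above B and C in its group, and library F above D and E in its own. The group means were 285 ± 142 CPM in lining, 48.7 ± 30.8 CPM in interstitial and 137 ± 16.3 CPM in BMDM (SD, n = 3 each).

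**Figure D1:**
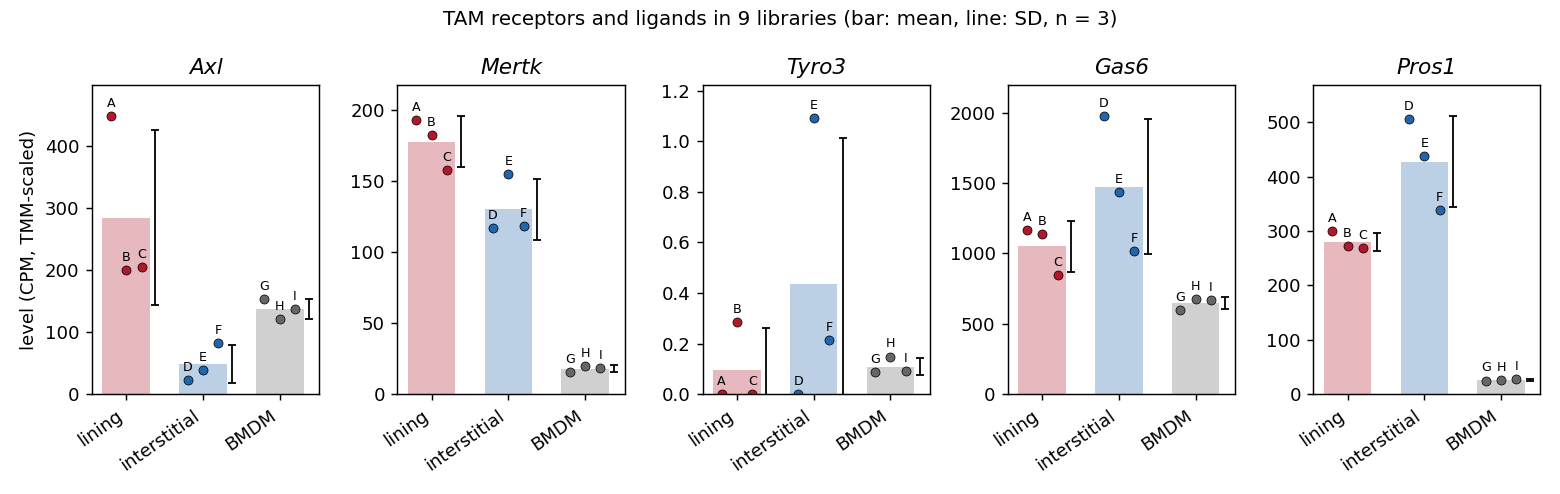
Levels of the 5 genes in CPM (linear axes from 0, a separate scale for each gene). Points are libraries A to I, bars are group means and lines are the SD of 3 libraries; Axl in lining (201 to 449 CPM) does not overlap interstitial (23.5 to 83.05 CPM), and Mertk and Pros1 are low in all 3 BMDM libraries.

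Axl was 5.74-fold higher in lining than in interstitial macrophages (log2 fold change 2.52 ± 0.47 SE, adjusted p = 0.0178, edgeR). That call was lost without library E (adjusted p = 0.0568), G (0.0533) or I (0.0541), while the log2 difference stayed between 2.03 and 3.08 over all 9 single omissions. Interstitial macrophages also had a 2.78-fold lower Axl level than BMDM (log2 fold change -1.47 ± 0.46, adjusted p = 0.0276). This call was lost without E (adjusted p = 0.0771), G (0.0932), H (0.0643) or I (0.0743), and without F the log2 difference was -2.08. Between lining and BMDM the log2 difference of Axl was 1.05 ± 0.44 and missed the threshold (adjusted p = 0.0871), although the groups did not overlap. It passed without D (adjusted p = 0.0325) or F (0.0174), and was 0.53 without A.

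Mertk, the receptor of apoptotic cell uptake, separated both tissue populations from BMDM. It (ENSMUSG00000014361) lies at chromosome 2, bases 128698956 to 128802894, plus strand. Mertk had 193, 182 and 158 CPM in lining and 117, 155 and 119 CPM in interstitial libraries, against 15.3, 20.1 and 18.2 CPM in BMDM. Each of the 6 sorted libraries was far above each BMDM library. Mertk was 9.94-fold higher in lining macrophages than in BMDM (log2 fold change 3.31 ± 0.18, adjusted p = 4.13e-08) and 7.31-fold higher in interstitial macrophages than in BMDM (2.87 ± 0.17, adjusted p = 1.27e-07). Both calls held in every alternative fit. The lowest lining library (158 CPM) lay just above the highest interstitial one (155 CPM). The log2 difference of 0.44 ± 0.16 between these groups missed the threshold (edgeR, adjusted p = 0.156).

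Tyro3, the receptor best known from the nervous system, was at or near the detection floor throughout. It had 0, 3 and 0 counts in lining, 0, 12 and 1 in interstitial and 2, 3 and 2 in BMDM libraries. Library E, with 12 counts or 1.09 CPM, was the only library above the 3 counts taken as the floor. A count of 0 allows up to 1.45 CPM in library A, so a low level in the shallow libraries was not detectable at this depth. The exons of Tyro3 (ENSMUSG00000027298) total 6198 bases, the longest of the 5 members, within chromosome 2, bases 119797733 to 119818104, plus strand.

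Gas6, the ligand of all 3 receptors, was the most abundant member per kilobase in every group. It (ENSMUSG00000031451) lies at chromosome 8, bases 13465374 to 13494490, minus strand. Gas6 had 1167, 1138 and 844 CPM in lining and 1974, 1437 and 1014 CPM in interstitial libraries, against 597, 673 and 670 CPM in BMDM. The sorted libraries were all above the BMDM libraries, while lining and interstitial overlapped, since interstitial library F was below lining libraries A and B. Gas6 was 2.28-fold higher in interstitial macrophages than in BMDM (log2 fold change 1.19 ± 0.22, adjusted p = 0.000857), in every alternative fit. In lining macrophages it was 1.62-fold higher than in BMDM (0.70 ± 0.22, adjusted p = 0.02), a call lost without A (adjusted p = 0.0907), B (0.0988), G (0.0808), H (0.0531) or I (0.0649). Between lining and interstitial macrophages the log2 difference was -0.49 ± 0.21 (adjusted p = 0.235), which passed only without F (-0.73, adjusted p = 0.0301).

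Pros1, which encodes protein S, a ligand of MERTK and also a plasma anticoagulant, had the largest contrasts with BMDM of the 4 members tested. The gene (ENSMUSG00000022912) lies at chromosome 16, bases 62854307 to 62929346, plus strand. Pros1 had 299, 273 and 268 CPM in lining and 505, 438 and 339 CPM in interstitial libraries, against 25.2, 25.2 and 27.5 CPM in BMDM. No groups overlapped: interstitial libraries were highest and BMDM lowest. Pros1 was 10.8-fold higher in lining macrophages than in BMDM (log2 fold change 3.43 ± 0.16, adjusted p = 1.77e-08) and 16.4-fold higher in interstitial macrophages than in BMDM (4.04 ± 0.17, adjusted p = 7.1e-09). Both calls held in every alternative fit. Lining macrophages had a 1.53-fold lower Pros1 level than interstitial macrophages (-0.61 ± 0.15, adjusted p = 0.0343). That last call held only when F was the library left out. It was lost without A, B, C, D, E, G, H or I, at adjusted p-values of 0.0720, 0.0982, 0.0880, 0.0647, 0.0853, 0.0719, 0.0717 and 0.0604, with log2 differences between -0.78 and -0.50.

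**Figure D2:**
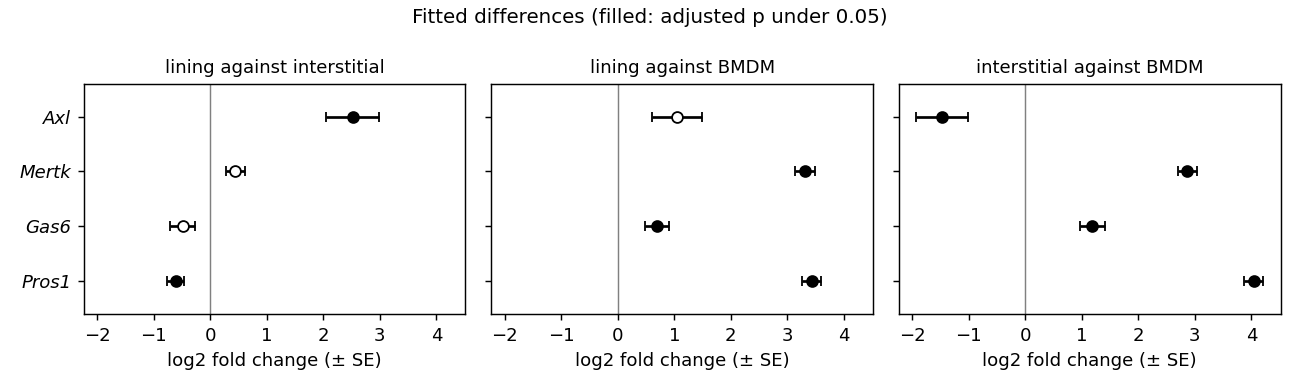
Fitted log2 fold change (x axis) of the 4 genes tested, in lining against interstitial, lining against BMDM and interstitial against BMDM, with SE; filled points are called at an adjusted p under 0.05. Axl is at 2.52 in the first comparison and -1.47 in the last, whereas Mertk and Pros1 lie between 2.87 and 4.04 in both comparisons with BMDM.

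By comparison, 2 of the 4 members tested were called between lining and interstitial macrophages, where 5.79% of all genes tested were called. Axl was higher, as 3.74% of genes were, and Pros1 was lower, as 2.05% were. Against BMDM, 3 members were called for lining, where 43.5% of genes were called (23.1% higher and 20.5% lower), and all 3 were higher. For interstitial macrophages 4 were called, where 44.8% of genes were (23.4% higher and 21.3% lower), and of these Mertk, Gas6 and Pros1 were higher and Axl was lower. With shares that large, a call against BMDM says little by itself. The share of all genes whose libraries did not overlap between groups was not counted, so non-overlap of a member is a description only. The median log2 fold change of all genes was -0.01, 0.00 and -0.01 in the 3 comparisons.

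Levels per kilobase placed the ligands above the receptors in every group except for Pros1 in BMDM. Gas6 averaged 412 CPM/kb in lining, 579 CPM/kb in interstitial and 254 CPM/kb in BMDM libraries, above 99.3%, 99.5% and 99.0% of the genes tested. Pros1 averaged 68.5, 105 and 6.35 CPM/kb in lining, interstitial and BMDM libraries. It thus stood above 94.5% and 96.7% of genes in the tissue populations and near the middle, at 50.9%, in BMDM. Axl averaged 56.7, 9.68 and 27.3 CPM/kb in lining, interstitial and BMDM libraries, and Mertk 41.0, 30.1 and 4.12 CPM/kb. In lining the neighbouring levels of Pros1, Axl and Mertk lay within the SD of Axl (28.1 CPM/kb) of each other. Axl ranged from 62.5% of genes in interstitial to 93.1% in lining, and Mertk from 41.1% in BMDM to 90.2% in lining.

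The receptor make-up differed between the groups. Axl made up 66.7%, 48.7% and 52.9% of the summed receptor level per kilobase in lining libraries A, B and C, with nearly all of the rest in Mertk. In interstitial libraries D, E and F its share was 14.7%, 18.0% and 37.6%, and Mertk held the larger part in each. In BMDM libraries G, H and I, Axl's share was 89.6%, 83.8% and 86.6%. Tyro3 reached at most 0.402%, in library E. The receptor sum was 134, 82.1 and 77.4 CPM/kb in lining, 31.7, 43.9 and 43.9 CPM/kb in interstitial, and 34.1, 28.8 and 31.4 CPM/kb in BMDM libraries. Interstitial macrophages and BMDM thus had receptor sums of similar size made of different receptors.

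**Figure D3:**
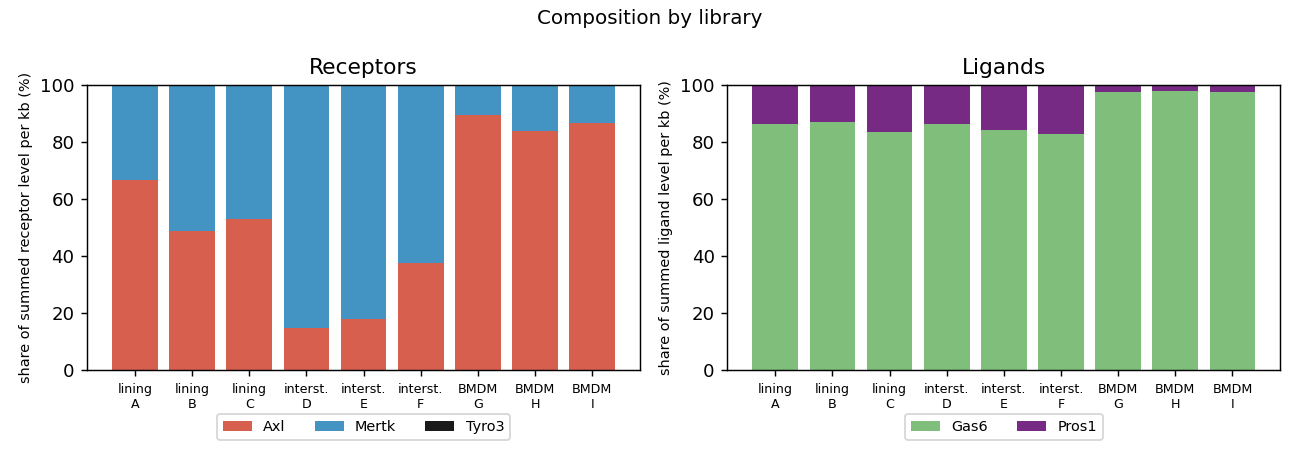
Share of each receptor (left) and each ligand (right) in the summed level per kilobase, in percent, for libraries A to I. Axl holds 48.7% to 66.7% of the receptor level in lining, 14.7% to 37.6% in interstitial and 83.8% to 89.6% in BMDM libraries, and Pros1 is a minor ligand in all.

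The ratio of Axl to Mertk counts within a library does not depend on how libraries are scaled. It was 2.32, 1.10 and 1.30 in lining, 0.201, 0.256 and 0.699 in interstitial, and 10.1, 6.03 and 7.52 in BMDM libraries. The 3 ranges did not overlap. On the log2 scale the ratio differed by 2.18 ± 0.64 between lining and interstitial, by -2.36 ± 0.39 between lining and BMDM and by -4.54 ± 0.59 between interstitial and BMDM (SE, n = 3 each). Each had a 2-sided exact permutation p = 0.1, the smallest that 3 against 3 allows, and an adjusted p of 0.12 over the 6 ratio comparisons. With 3 libraries a group no such difference can pass a threshold of 0.05.

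Ligand make-up had ranges that did not overlap between the tissue populations and BMDM, and that overlapped between lining and interstitial libraries. Counts of Gas6 exceeded those of Pros1 3.90, 4.17 and 3.15 times in lining and 3.91, 3.28 and 2.99 times in interstitial libraries, against 23.7, 26.7 and 24.4 times in BMDM. On the log2 scale the ratio differed by -2.74 ± 0.13 between lining and BMDM and by -2.88 ± 0.12 between interstitial and BMDM (2-sided exact permutation p = 0.1, adjusted p = 0.12 each). Between lining and interstitial the difference was 0.14 ± 0.17 (SE, exact permutation p = 0.5). The ligand sum was 531, 513 and 397 CPM/kb in lining, 898, 671 and 481 CPM/kb in interstitial, and 240, 270 and 270 CPM/kb in BMDM libraries.

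Markers of other cell types also differed between the groups. The 9 fibroblast markers summed to 275, 292 and 400.2 CPM in lining libraries A, B and C, to 200.4, 709 and 424 CPM in interstitial libraries D, E and F, and to between 12.6 and 15.6 CPM in BMDM. Prg4 alone ranged from 19.9 to 408 CPM over the interstitial libraries. Pdpn averaged 103, 26.7 and 11.4 CPM in lining, interstitial and BMDM libraries. Col1a1, Col1a2, Col3a1 and Dcn averaged between 32.9 and 60.7 CPM in the sorted groups. All 9 markers were higher in lining than in BMDM (23.1% of all genes tested were). In interstitial macrophages 8 of 9 were higher than in BMDM (23.4% were). Mertk, Gas6 and Pros1 were higher in both as well. Within the interstitial group, library D had the lowest fibroblast sum and the highest Gas6 and Pros1. Mertk followed the order of that sum there, with 117, 155 and 119 CPM in D, E and F. Within the lining group, library C had the highest fibroblast sum and the lowest Mertk, Gas6 and Pros1. With 3 libraries a group, these orders are a description only. The 6 platelet markers summed to between 240 and 349 CPM in lining, between 903 and 1944 CPM in interstitial and between 11.8 and 16.9 CPM in BMDM libraries. Most of that was Pf4, at 297, 1307 and 11.99 CPM, while Ppbp averaged 0.445, 4.13 and 1.01 CPM and Itga2b 0.671, 3.17 and 1.597 CPM in lining, interstitial and BMDM libraries. Gp9, Gp1bb and Tubb1 averaged under 1 CPM in every group. Dendritic cell markers summed to between 3.88 and 40.5 CPM in lining and between 89.3 and 141 CPM in interstitial libraries. In BMDM they summed to between 3.37 and 4.27 CPM. Cd209a averaged 11.6, 66.3 and 1.16 CPM and Flt3 8.05, 10.2 and 1.22 CPM in lining, interstitial and BMDM libraries. Zbtb46 averaged 6.94, 19.4 and 0.604 CPM there, and Ccr7 1.08, 10.7 and 0.218 CPM. Xcr1 and Clec9a averaged under 1 CPM in every group. The 6 smooth muscle and pericyte markers summed to 693 to 1004 CPM in lining, 77.6 to 265 CPM in interstitial and 55.0 to 81.2 CPM in BMDM libraries. Cspg4 made up most of that (853, 164 and 62.7 CPM), while Acta2, Myh11, Des, Rgs5 and Tagln averaged at most 6.04 CPM in any group and had smaller means in lining than in interstitial libraries. The 8 endothelial markers summed to 32.9 to 45.8 CPM in lining, 49.2 to 140 CPM in interstitial and 141 to 147 CPM in BMDM libraries. The BMDM sum was mostly Vwf and Kdr (93.7 and 46.0 CPM), while Pecam1 averaged 2.69, 17.3 and 0.893 CPM in lining, interstitial and BMDM libraries. Of 6 endothelial markers tested, 3 were higher and 1 lower in interstitial macrophages than in BMDM, with a median of 2.48; of the 3, Cdh5 was not called without H, nor Tek without E, G, H or I (adjusted p up to 0.0579 and 0.114). Neutrophil markers reached at most 4.01 CPM in lining, 73.1 CPM in interstitial and 30.8 CPM in BMDM libraries, lymphocyte markers at most 3.75, 8.28 and 0.184 CPM, and keratinocyte markers at most 1.94, 2.34 and 0.994 CPM. The part of such cells in the levels of the ligands and receptors was not tested.

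Pairs of members were also compared over the 9 libraries, as a description that includes the group differences all pairs share. Mertk and Pros1 had a Pearson r of 0.958 on log2 CPM, Gas6 and Pros1 0.875, and Mertk and Gas6 0.763. Axl had r values of -0.02 with Mertk, -0.28 with Pros1 and -0.54 with Gas6. Among 8975 genes with a mean of at least 10 CPM, those most like Axl were Ass1 (r = 0.971), Sema4c (0.969) and Capn5 (0.964). Ass1, which encodes the arginine-synthesis enzyme argininosuccinate synthase, averaged 77.9 CPM in lining, 6.59 CPM in interstitial and 31.3 CPM in BMDM libraries. Those most like Mertk were Dock6, Pdgfc and Nfix (r = 0.997 each). Pdgfc, which encodes a platelet-derived growth factor, averaged 124, 82.1 and 1.136 CPM in lining, interstitial and BMDM libraries. Gas6 was followed by Pip4k2a (0.989), Snx29 (0.984) and Dedd2 (0.979). Pros1 was followed by C4b, Arhgef3 and Cd86 (r = 0.998 each). The complement gene C4b averaged 305, 807 and 0.415 CPM in lining, interstitial and BMDM libraries, and its near-identical copy C4a makes those counts uncertain.

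The genes around the receptors were described from 7 lists, with differences given as log2 fold changes ± SE and p-values from the same edgeR test. Counts of called genes are to be read beside the shares of all genes tested. These were 3.74% higher and 2.05% lower for lining against interstitial and 23.1% and 20.5% for lining against BMDM. For interstitial against BMDM they were 23.4% and 21.3%. The genes that process the ligands come first. Of the 7 genes of the vitamin K cycle and Gla processing, all tested, none was called between lining and interstitial macrophages by edgeR, DESeq2 or limma-voom, and 1 had an unadjusted p under 0.05. Ggcx, the carboxylase that makes Gla residues, averaged 14.1 ± 5.06 CPM in lining, 15.1 ± 5.56 CPM in interstitial and 12.5 ± 0.54 CPM in BMDM libraries, and was called in no comparison (adjusted p between 0.532 and 0.911). Vkorc1l1, a vitamin K epoxide reductase, averaged 48.6, 45.2 and 49.9 CPM and was not called either. Of the 7, 2 were lower in lining macrophages than in BMDM and 1 was lower in interstitial macrophages (2 without A or C). Nqo1, a quinone reductase, was lower in both (adjusted p = 4.26e-05 for lining and 0.000425 for interstitial). It had 4 counts in lining, all in library B and too few for a fold, and 22 counts in interstitial libraries against 1235 in BMDM (log2 fold change -3.64 ± 0.60 for interstitial). The count of 2 was 1 without B, C, G, H or I. The list median was 0.02, 0.19 and 0.30 in the 3 comparisons.

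Of 12 other genes for Gla-domain proteins, 7 were tested. None was called between lining and interstitial macrophages by edgeR, at an adjusted or an unadjusted p under 0.05, or by DESeq2, and limma-voom called 1. Mgp, the matrix Gla protein, was higher in lining (adjusted p = 0.00173) and in interstitial macrophages (adjusted p = 0.00206) than in BMDM. It had 58 and 103 counts in the sorted groups and 2 counts over all 3 BMDM libraries, too few for a fold. Prrg4, a transmembrane Gla protein, was lower in both (-3.21 ± 0.81 for lining, adjusted p = 0.00763, and -5.59 ± 1.02 for interstitial, adjusted p = 0.000925), on 55 and 8 counts against 1661. Without B the lining value was -4.89, and without D, E or F the interstitial value was between -7.05 and -4.97. F10, coagulation factor X, was higher in interstitial macrophages than in BMDM (4.21 ± 1.26, adjusted p = 0.0235), at 1.36 and not called without F, and not called without G, H or I (adjusted p up to 0.228). Its 3 interstitial libraries ran from 2.37 to 61.8 CPM. Prrg2 was higher in lining than in BMDM (1.70 ± 0.35, adjusted p = 0.0019). Prrg1 and Prrg2 were higher in interstitial macrophages than in BMDM (2.81 ± 0.99, adjusted p = 0.0354, and 1.09 ± 0.34, adjusted p = 0.022), and lost these calls without D, G, H or I, and Prrg1 also without E (adjusted p up to 0.128). The list median was 0.35, 1.28 and 2.56. F2, Proc, Proz, Prrg3 and Bglap had too few counts to be tested.

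Of 6 genes of receptor shedding, all tested, none was called between lining and interstitial macrophages by edgeR or limma-voom, 1 by DESeq2, and 3 had an unadjusted p under 0.05. The protease gene Adam10 had 304 ± 55.0 CPM in lining and 211 ± 3.96 CPM in interstitial libraries (SD, n = 3 each), a log2 difference of 0.53 ± 0.15 that missed the threshold (adjusted p = 0.0556). Adam17, the other protease, was lower in interstitial macrophages than in BMDM (-0.80 ± 0.19, adjusted p = 0.00442), with 159 against 278 CPM. Rhbdf1, a rhomboid partner of ADAM17, was higher in lining (6.08 ± 0.35, adjusted p = 7.74e-08) and in interstitial macrophages (6.59 ± 0.35, adjusted p = 4.45e-08) than in BMDM, with 43.5 and 63.0 against 0.641 CPM. Timp3, a metalloprotease inhibitor that acts on ADAM17, was also higher in both, by 3.19 ± 0.53 (adjusted p = 0.000483) and 4.32 ± 0.54 (adjusted p = 5.07e-05). In all, 3 of 6 were higher in lining than in BMDM. Among them was Rhbdf2 (log2 fold change 0.86), whose call was lost without A, B, G, H or I (adjusted p up to 0.134). In interstitial macrophages 2 were higher and 3 lower than in BMDM. The lower count was between 1 and 3 with single libraries left out, because Adam10 lost its call without D, E, F, G, H or I and Frmd8 without E, G or H (adjusted p up to 0.143 and 0.0657). The list median was 0.31, 0.50 and -0.11.

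Below the receptors, 4 of 18 signalling genes were higher in lining than in interstitial macrophages, with a list median of 0.14. None was lower by edgeR, DESeq2 or limma-voom, and 1 was lower at an unadjusted p under 0.05. Elmo1, part of the engulfment module that activates RAC1, was higher by 1.13 ± 0.18 (adjusted p = 0.00227), with 347 CPM in lining and 158 CPM in interstitial libraries. Vav1, a RAC exchange factor that acts downstream of MERTK, was higher by 0.92 ± 0.17 (adjusted p = 0.00867), with 258 against 136 CPM. Ptk2b, a focal adhesion kinase family member, was higher by 0.79 ± 0.13 (adjusted p = 0.00455), with 175 against 101 CPM. These 3 calls held with each library left out. Plcg2, a phospholipase C, was higher by 0.89 ± 0.18 (adjusted p = 0.0146), a call lost without A (adjusted p = 0.0608), B (0.0549) or E (0.0502). The partners Dock1 and Rac1 were not called between these groups. Against BMDM, 6 of 18 were higher and 4 lower in lining, where 43.5% of all genes were called in either direction. In interstitial macrophages 3 were higher and 3 lower, where 44.8% of all genes were called. Ptk2b was lower than in BMDM in lining (-1.23 ± 0.13, adjusted p = 1.61e-05) and in interstitial macrophages (-2.01 ± 0.14, adjusted p = 3.12e-07). Crk, an adaptor of the same module, was higher by 0.94 ± 0.14 (adjusted p = 0.000188) and 0.93 ± 0.14 (adjusted p = 0.000186). Pik3r1, a regulatory subunit of PI3 kinase, was higher by 0.76 ± 0.12 (adjusted p = 0.000399) and 0.92 ± 0.12 (adjusted p = 8.77e-05). Plcg2 was lower in both, with log2 fold changes of -0.92 ± 0.18 (adjusted p = 0.00161) and -1.81 ± 0.19 (adjusted p = 9.86e-06). The count of 6 higher in lining was between 3 and 6 with single libraries left out, since Pik3r2 lost its call without A, B, G, H or I, Dock1 without A, C, F, G, H or I and Akt1 without I. In interstitial macrophages 5 were higher and 5 lower without D, and 5 were lower without C. The list medians were 0.09 and 0.03.

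TAM signalling dampens cytokine and interferon responses through suppressors such as SOCS1 and SOCS3 and through the interferon receptor. Of 9 such genes, 7 were tested. None was called between lining and interstitial macrophages by edgeR, DESeq2 or limma-voom, and 1 had an unadjusted p under 0.05. The list median was -0.17 there, and -0.22 and -0.18 against BMDM. Socs3 averaged 304 CPM in lining and 407 CPM in interstitial libraries, against 1.91 CPM in BMDM, and was higher than in BMDM by 7.31 ± 0.22 (adjusted p = 1.08e-09) and 7.72 ± 0.22 (adjusted p = 8.13e-10). Ifnar1, a chain of the interferon receptor, was higher by 0.91 ± 0.14 (adjusted p = 0.000203) and 0.63 ± 0.14 (adjusted p = 0.00256). Stat2 and Irf9, which act downstream of that receptor, were lower in both tissue populations than in BMDM. Stat2 was lower by 1.27 and 0.96, and Irf9 by 0.73 and 0.56 on the log2 scale (adjusted p between 4.95e-05 and 0.00711). Socs1 ranged from 0.887 to 19.97 CPM in interstitial libraries and was not called. Twist1 and Twist2 had too few counts to be tested.

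**Figure D4:**
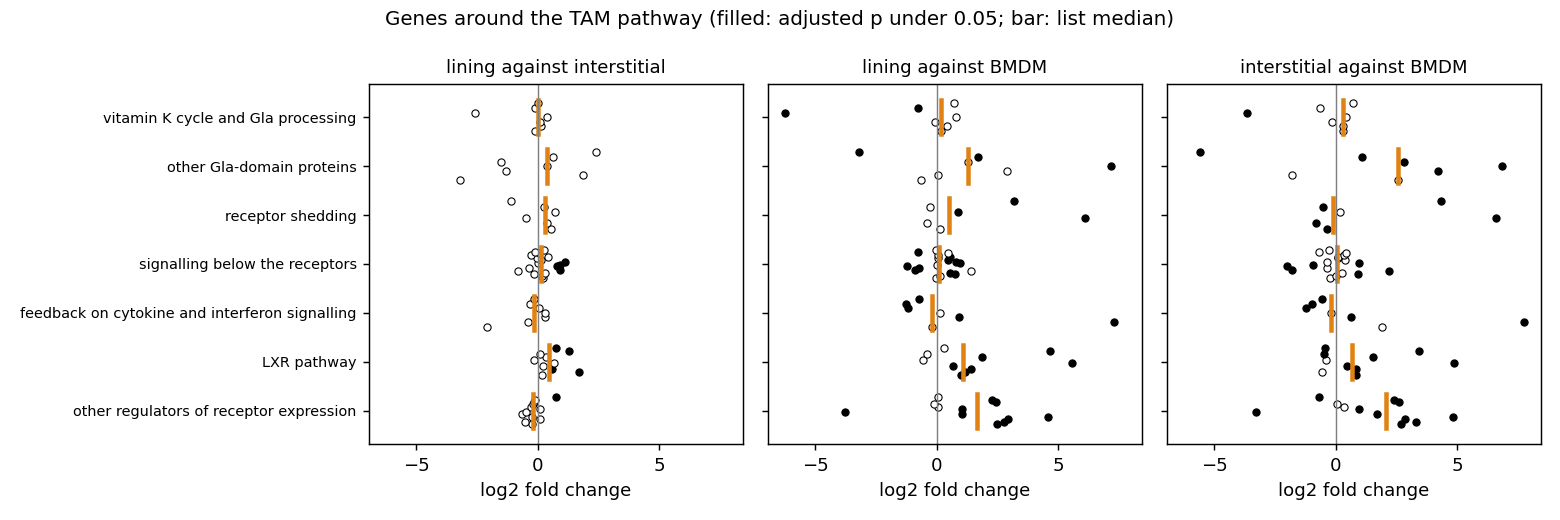
Log2 fold change (x axis) of every tested gene of 7 lists around the TAM pathway (rows) in the 3 comparisons; filled points are called at an adjusted p under 0.05 and the orange bar is the list median. Called genes between lining and interstitial macrophages are in the signalling, LXR and other-regulator lists, and the regulators list has medians of -0.21, 1.66 and 2.05.

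Liver X receptors (LXR), sterol-sensing nuclear receptors, are known to induce Mertk in macrophages that have taken up apoptotic cells. Of 10 genes of this pathway, 4 were higher in lining than in interstitial macrophages (median 0.46), and none was lower by edgeR, DESeq2, limma-voom or an unadjusted p under 0.05. They were Nr1h3, which encodes LXR alpha (1.71 ± 0.40, adjusted p = 0.0276), its partner Rxra (0.57 ± 0.13, adjusted p = 0.0263), and the targets Apoe (1.27 ± 0.29, adjusted p = 0.0254) and Lpcat3 (0.75 ± 0.15, adjusted p = 0.0127). With single libraries left out the count lay between 0 and 4. Nr1h3 and Rxra lost their calls without A, B, E, G, H or I (adjusted p up to 0.0857 and 0.0866), Apoe without A, B, E or F (up to 0.117), and Lpcat3 without B (0.0543). Against BMDM, 7 of 10 were higher and none lower in lining (median 1.07), with 1 lower at an unadjusted p under 0.05, none by DESeq2 and 1 by limma-voom. In interstitial macrophages 6 were higher and 2 lower (median 0.64). The lower genes were Lpcat3, not called without G, H or I, and Srebf1, not called without D, E, G, H or I (adjusted p up to 0.0912 and 0.101). Abca1, the cholesterol exporter, had 898 CPM in lining and 565 CPM in interstitial libraries against 19.1 CPM in BMDM, higher by 5.55 ± 0.24 (adjusted p = 7.28e-09) and 4.88 ± 0.23 (adjusted p = 1.44e-08). Apoe, the lipid carrier, had 6375 and 2643 against 249 CPM, higher by 4.68 ± 0.33 (adjusted p = 6.93e-07) and 3.41 ± 0.31 (adjusted p = 5.4e-06). Mylip, an LXR target that limits the LDL receptor, was higher by 1.86 ± 0.18 (adjusted p = 7.22e-06) and 1.52 ± 0.18 (adjusted p = 3.6e-05). Abcg1, another LXR target, was called in no comparison.

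Among 12 other factors tied to receptor expression, Hif1a, the hypoxia factor, was the gene called by edgeR between lining and interstitial macrophages, higher by 0.73 ± 0.14 (adjusted p = 0.0103). No gene was lower by edgeR or limma-voom, 1 was by DESeq2, 2 were at an unadjusted p under 0.05, and 3 were called lower by edgeR without F. The list median there was -0.21. Against BMDM, 8 of 12 were higher in each tissue population, with 1 lower in lining and 2 lower in interstitial macrophages, and medians of 1.66 and 2.05. Maf, a macrophage transcription factor, had 701 CPM in lining and 819 CPM in interstitial libraries against 126 CPM in BMDM, higher by 2.47 ± 0.29 (adjusted p = 4.15e-05) and 2.70 ± 0.29 (adjusted p = 2.12e-05). Klf4 had 746 and 880 against 30.9 CPM, higher by 4.59 ± 0.15 (adjusted p = 1.37e-09) and 4.83 ± 0.15 (adjusted p = 8.51e-10). Klf2, Jun and Fosl2 were higher than in BMDM by between 2.26 and 2.92 on the log2 scale in both populations. Nr3c1, the glucocorticoid receptor, was higher by 1.05 ± 0.19 (adjusted p = 0.000776) and 1.69 ± 0.19 (adjusted p = 1.95e-05). Pparg, the lipid-activated nuclear receptor, was lower by 3.78 and 3.30 (adjusted p = 0.000401 and 0.000592). Klf2, Klf4, Jun, Fosl2 and Socs3 are also early response genes that cell isolation can induce, and the part of sample handling in their levels was not tested.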

How the data were processed

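The 5 genes and the 16 gene lists (7 of pathway genes, 9 of cell markers) were chosen with earlier results of these data known. The authors deposited raw read counts per gene: per the file headers, featureCounts 1.6.1 summed reverse-stranded reads over exons of Ensembl release 91 genes (GRCm38), with no option for multi-mapping reads, so near-identical copies are undercounted. None of the 5 members shares same-strand exons with another gene in that table. Per the labels, 500 ng of RNA went into stranded poly(A) libraries read as single 101 bp reads. Per the submitters' processing notes, bcl2fastq 2.17.1.14, cutadapt 1.15, STAR 2.5.4a, DESeq2 1.20.0 and R 3.5.0 were used.

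Here, R 4.3.3 and edgeR 4.0.16 kept genes by filterByExpr (minimum count 10, minimum total 15), scaled libraries by the trimmed mean of M values and fitted group means by a robust quasi-likelihood model to all 9 libraries (6 residual degrees of freedom). Tests were 2-sided and adjusted by Benjamini-Hochberg over all genes kept. The SE divides the absolute log2 fold change by the root of F. Ratios of counts had 0.5 added to each count on the log2 scale and were tested by exact permutation of libraries. The code was tested on simulated data. Replicate libraries differed by more than sampling noise in every pair. Alternatives were DESeq2 1.42.0, limma-voom (limma 3.58.1), other size factors, other filters, thinning to 2194920 counts, the 6 libraries of a comparison alone, and each library left out. All 5 members are named throughout, list genes where called, at most the 6 with the lowest p per list and comparison, and for each tested member the 3 genes with the highest r (prior count 2). Ggcx, Vkorc1l1, Adam10, Rac1, Dock1, Socs1 and Abcg1 were added after their values were seen. Some list genes are not reported here. Reads carry no molecular identifiers, so detection floors cover counting error only. Promoter stretches come from RefSeq (GRCm38.p6), where all 5 members matched.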

Additional observations from a re-analysis of the deposited data

How the results depend on the processing

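Between lining and interstitial macrophages, 730 genes and 2 members were called. DESeq2 called 1331 genes. With only the 6 libraries compared, 366 genes and 0 members were called (without filtering low counts, 1 member). With single libraries left out, between 396 and 888 genes and between 0 and 3 members were called. Of 192 member values under the alternatives, 161 kept their direction and side of the threshold, 25 lost a call, 6 gained one and 0 reversed. Axl between lining and interstitial macrophages also lost its call with no filter (adjusted p = 0.0769) and with only the 6 libraries (0.12), as did Pros1 with only those libraries (0.12). Axl between lining and BMDM was called by DESeq2 (0.0223), limma-voom (0.0307) and the fit of those 6 libraries (0.019), and Axl between interstitial macrophages and BMDM lost its call with no filter (0.0705) and after thinning (0.0663). Of 2362 values of called list genes, 2146 kept their call, 216 lost it and 0 reversed. The cause of these changes was not tested. Tyro3 had too few counts to be tested. No paired analysis was possible because the libraries carry 9 different letters and the labels pair none of them.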
